A study of Mus musculus with 26 samples.

Results

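The 10 entorhinal cortex arrays of injected mice, of 26 arrays in all, were ranked by the level of MHC class II genes, and the 5 highest were set beside the 5 lowest. The score of an array was the mean log2 value of Cd74, H2-Aa, H2-Ab1 and H2-Eb1, each read from its single-symbol probe set with the highest mean over the 26 arrays. The arrays of each side were thus chosen by their measured class II levels, so differences between the sides are given as a description without a test, and the 4 score genes are not among the results. Array levels are deposited log2 values, so a difference of 1 means that one signal was 2 times the other.

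The study delivered lentivirus into the entorhinal cortex of aged mice and took the entorhinal cortex and hippocampus after 4 weeks. The injected groups in each region were APP transgenic mice given BDNF virus (4 arrays), APP transgenic mice given GFP virus (4 arrays) and non-transgenic mice given GFP virus (2 arrays). Non-transgenic mice with a sham lesion (3 arrays a region) served as the controls. BDNF is a neurotrophin, GFP a marker protein that serves as the virus control, and the APP transgene is a model of Alzheimer's disease. The sources used here do not give the promoter of the transgene or of the virus, the age in months, the sex of the animals, or whether an array held pooled animals. Sham animals differ from transgenic injected animals in genotype as well as in the injection, so genotype can be separated from the injection only through the 2 non-transgenic GFP arrays.

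MHC class II molecules display peptides to CD4 T cells, and Cd74, the invariant chain, guides them through the cell. In the brain they are carried mainly by activated microglia, by macrophages and dendritic cells of the meninges and vessels, and by B cells. Interferon gamma induces them through the transactivator Ciita, and the same cytokine induces class I presentation, guanylate-binding proteins, immunity-related GTPases and the chemokines that bind Cxcr3.

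The high side held, from the top, transgenic GFP 4 (score 11.40), non-transgenic GFP 1 (11.29), transgenic BDNF 1 (10.82), transgenic BDNF 4 (9.33) and transgenic GFP 1 (9.10). The low side held transgenic GFP 3 (9.08), transgenic GFP 2 (8.38), non-transgenic GFP 2 (7.77), transgenic BDNF 3 (7.23) and transgenic BDNF 2 (6.96). The sham arrays scored 6.82, 7.19 and 6.74. The cut does not fall at a gap in the scores. The arrays just inside and just outside it scored 9.10 and 9.08, and both have a Cd74 level of 9.35. The widest step lay within the high side, from 10.82 to 9.33. The lowest injected array lies within the sham range. The mean score was 10.39 ± 1.09 on the high side, 7.88 ± 0.86 on the low side and 6.92 ± 0.24 on sham arrays (SD, n = 5, 5 and 3). Per-array values of a gene are given in this order of arrays throughout.

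**Figure D1:**
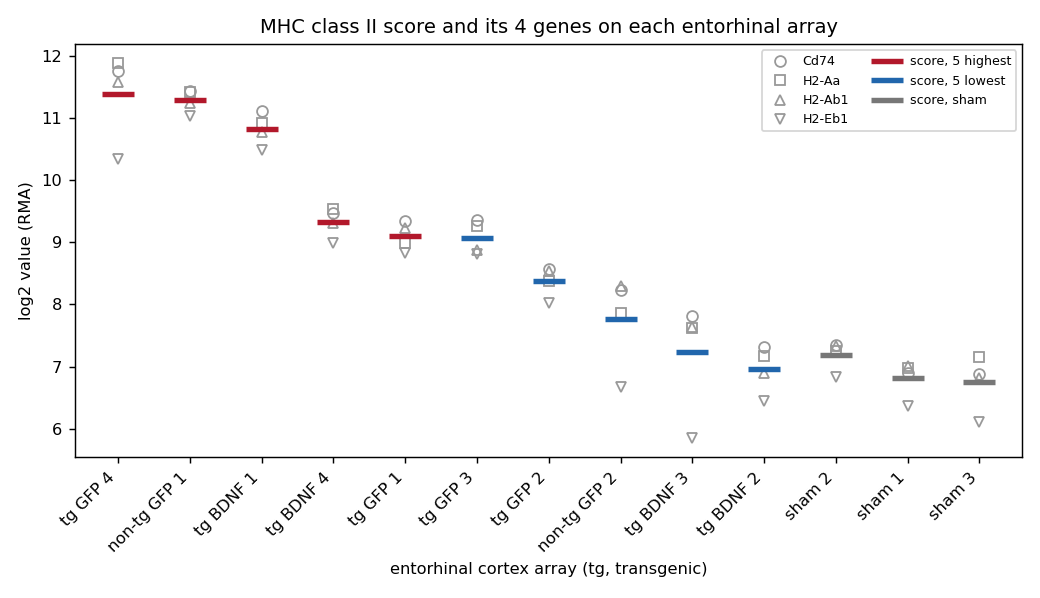
MHC class II score and the log2 level of its 4 genes (y axis) on each of the 13 entorhinal arrays (x axis), with the 5 high, 5 low and 3 sham arrays in turn. The scores run without a gap at the cut, 9.10 against 9.08, and the lowest injected array, at 6.96, lies between the sham arrays.

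The labels were spread over both sides. The high side held 2 BDNF and 3 GFP arrays, as did the low side, and each side held 4 transgenic arrays and 1 non-transgenic array. In transgenic entorhinal cortex the score was 8.59 ± 1.83 with BDNF virus and 9.49 ± 1.32 with GFP virus (SD, n = 4 each). The difference of -0.90 ranged from -1.65 (without transgenic BDNF 1) to -0.27 (without transgenic GFP 4) when 1 array was left out. Over all injected arrays the score exceeded the sham score by 2.22, and 9 of the 10 injected arrays lay above the highest sham array. Since the score chose the arrays, these values are a description with no test.

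Neuron and cortical layer markers were present on each array. The general neuron list averaged 11.56 to 11.83 on the entorhinal arrays, and the list of cortical and entorhinal layer genes averaged 9.40 to 9.82 there, against 9.01 to 9.29 on hippocampal arrays. Xist, the RNA of the inactive X chromosome, was at 10.38 or more on 4 of 5 high arrays, 2 of 5 low arrays and 3 of 3 sham arrays, and at 5.78 or less on the others, so the sides differ in the mix of sexes. The 3'-minus-5' difference of actin, a measure of RNA quality on these arrays, was 1.90 to 2.03 on high arrays, 1.79 to 2.08 on low arrays and 1.96 to 2.11 on sham arrays. Myelin genes stood low on non-transgenic GFP 2 and transgenic BDNF 3, both low-side arrays. The part of Xist class, RNA quality and myelin content in the differences below was not tested.

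In the 14937 genes other than the 4 score genes that passed a filter on low levels (a mean log2 value of at least 4.33 over the 26 arrays), 17 were at least 1 log2 unit higher on the high side with no overlap between the sides (0.114%). No gene was at least 1 lower without overlap. Whatever the size, 118 genes were higher (0.79%) and 93 were lower (0.623%) without overlap. With overlap allowed, 78 genes (0.522%) were at least 1 higher and 4 were at least 1 lower (0.0268%). The 17 genes were Igha, Ccl8, Cxcl13, Lyz2, Cxcl11, Calhm6, Ptprc, Fgl2, Ms4a6b, Ifit1, Xaf1, Serping1, Tmem140, Tap1, AU020206, Gimap4 and Ms4a7. Since they were picked for their difference, nothing is read from the share. The count was 51 without transgenic GFP 1, 68 without transgenic GFP 3 and 103 with the high-Xist arrays alone, which also gave 11 lower genes. The high-Xist arrays were 4 against 2. Sides with fewer arrays meet the rule of no overlap more readily, so these counts are not directly comparable with 17. In bulk tissue a greater number of cells of a type and more RNA per cell cannot be told apart.

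Chemokines formed the first group of these genes. Ccl8, which attracts monocytes and other leukocytes, was at 10.14, 7.45, 7.62, 6.70 and 6.88 on the high arrays, against 6.49, 5.41, 5.51, 5.46 and 5.49 on the low arrays and 5.10, 5.66 and 5.50 on sham arrays. Every high array exceeded every low and sham array, and transgenic GFP 4 stood far above the rest. Cxcl13, the chemokine that draws B cells into follicles, was at 9.18, 8.68, 7.53, 6.92 and 6.42 on the high arrays, against 6.28, 5.88, 5.83, 5.59 and 5.87 on the low arrays and 5.76, 5.47 and 5.93 on sham arrays. The high arrays again exceeded all others, and the low arrays other than transgenic GFP 3 were within the sham range. Cxcl11, a ligand of the chemokine receptor Cxcr3, averaged 7.38 ± 1.35 on high and 5.78 ± 0.28 on low arrays (SD, n = 5 each). However, a second probe set of the gene differed by 0.09 only. Ccl5, which attracts T cells and monocytes, had 10.28, 9.05, 8.38, 7.03 and 6.37 on the high arrays and 6.39, 5.33, 6.13, 5.96 and 5.44 on the low arrays, so that transgenic GFP 1 and transgenic GFP 3 overlapped. Cxcl9, another Cxcr3 ligand, was higher by 2.01 on the high side, with overlap. Of 22 chemokine and receptor genes, 18 were higher on the high side, with a median difference of 0.27, against 6635 of 14937 genes (44.4%) and a median of -0.01 over all genes.

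The interferon gamma response was the list with the largest median difference, 1.49 over 19 genes, of which 18 were above 0 and 12 were at least 1 higher. None of the 19 was free of overlap, and on the mean of the list transgenic GFP 3, at the top of the low side, lay at 7.49 and transgenic GFP 1, at the foot of the high side, at 7.01. The immunity-related GTPase Iigp1 was at 10.30, 9.88, 9.34, 8.13 and 7.61 on the high arrays, against 8.31, 6.75, 6.13, 5.81 and 6.41 on the low arrays and 6.03, 6.56 and 5.48 on sham arrays. Gbp2, a guanylate-binding protein that acts against intracellular pathogens, was at 10.33, 10.11, 9.68, 8.67 and 7.83 on the high arrays, against 8.20, 7.55, 6.96, 7.13 and 7.19 on the low arrays and 6.72, 7.49 and 7.01 on sham arrays. Both genes largely followed the order of the scores, with the top 3 high arrays at least 1 log2 unit above every other array. The related genes Gbp8, Gbp6 and Igtp were higher by 2.85, 2.19 and 2.11. As a mean over the list, the level was 7.01 to 8.96 on high arrays, 6.46 to 7.49 on low arrays and 6.36 to 6.68 on sham arrays.

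Genes of class I presentation, which display peptides from inside the cell to CD8 T cells, were higher too, 14 of 14, with a median difference of 0.92. Of the 14, 4 were higher without overlap, beside 0.79% of all genes. Tap1, which carries peptides into the endoplasmic reticulum, was at 8.09, 7.69, 7.06, 6.74 and 6.62 on the high arrays, against 6.49, 5.96, 6.16, 5.85 and 6.10 on the low arrays and 5.83, 5.98 and 5.72 on sham arrays. No high array overlapped a low one, although the 3 other probe sets of Tap1 differed by -0.12 to 0.03. The class I heavy chains H2-D1 and H2-K1 were higher by 1.70 and 1.50, the class I transactivator Nlrc5 by 1.83 and the immunoproteasome subunit Psmb9 by 1.49, all with overlap. B2m, the light chain of class I, averaged 12.20 ± 0.49 on high and 11.20 ± 0.25 on low arrays (SD, n = 5 each). Of 11 other class II pathway genes 9 were higher, with a median of 0.59. These included the peptide-loading modulators H2-Oa (1.27) and H2-Ob (1.01), the lysosomal thiol reductase Ifi30 (1.03) and H2-DMb2 (0.85, no overlap). Ciita was at 5.06, 4.76, 4.79, 4.51 and 5.01 on the high arrays and 4.29, 4.70, 4.61, 4.69 and 4.42 on the low arrays. It differed by 0.28 with overlap, at a level near the filter.

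Type I interferon genes were higher by a median of 0.55 over 30 genes, 27 of them above 0 and 8 higher without overlap, beside 44.4% and 0.79% of all genes. Ifit1, an antiviral protein that binds foreign RNA, was at 7.04, 7.03, 6.82, 5.90 and 5.87 on the high arrays, against 5.84, 5.35, 5.13, 4.80 and 5.23 on the low arrays and 5.41, 5.49 and 5.73 on sham arrays. The 2 lower high arrays exceeded the highest low array narrowly. All low arrays other than transgenic GFP 3 lay below the lowest sham array. Xaf1, a promoter of cell death induced by interferon, was at 7.85, 7.55, 7.67, 6.91 and 7.03 on high arrays and 6.44, 5.84, 5.94, 6.04 and 6.53 on low arrays, and 3 of 5 low arrays were below the sham range (6.41 to 6.66). Oasl2 and Rtp4 were higher by 1.69 and 1.35 with overlap, whereas Irf7, the transcription factor of the type I response, differed by 0.31.

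**Figure D2:**
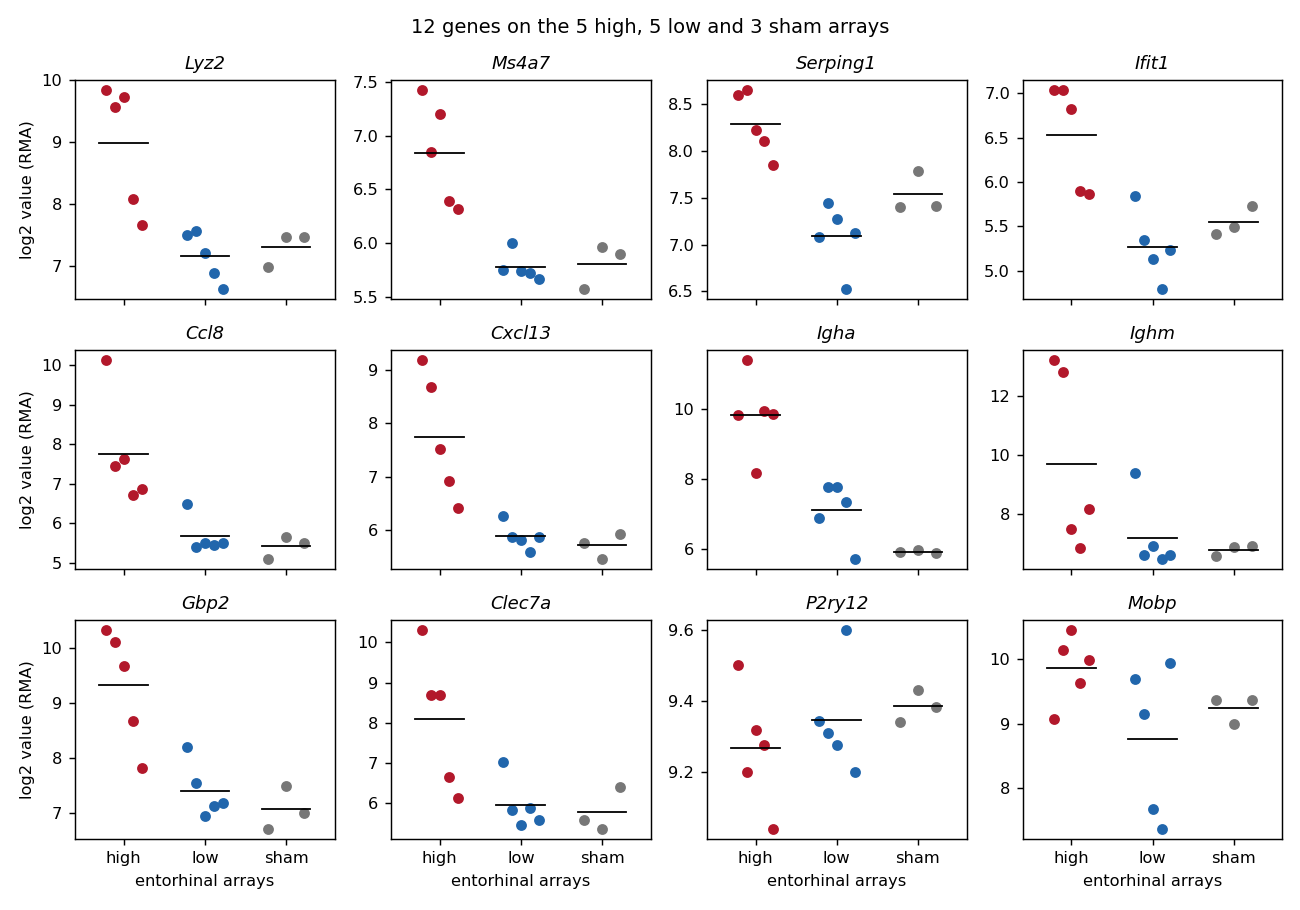
Log2 level (y axis) of Lyz2, Ms4a7, Serping1, Ifit1, Ccl8, Cxcl13, Igha, Ighm, Gbp2, Clec7a, P2ry12 and Mobp on the 5 high, 5 low and 3 sham arrays, 1 point an array with the mean of each group as a bar. The sides do not overlap in the first 7 genes and overlap in the other 5, and P2ry12 differs by -0.08 only.

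Macrophage and monocyte genes were represented by Lyz2, Fgl2, Ms4a6b and Ms4a7 among the 17 genes. Lyz2, the lysozyme of myeloid cells, was at 9.85, 9.57, 9.74, 8.08 and 7.67 on the high arrays, against 7.50, 7.57, 7.21, 6.89 and 6.63 on the low arrays and 6.99, 7.47 and 7.47 on sham arrays. The top 3 high arrays were clearly above the rest, and the lowest high array was narrowly above the highest low array. Its neighbour Lyz1, a near-identical copy whose probes may share signal, was higher by 1.86 with overlap. Ms4a7, a membrane protein of border macrophages, was at 7.43, 6.85, 7.20, 6.39 and 6.32 on the high arrays, against 5.75, 6.0, 5.73, 5.72 and 5.67 on the low arrays and 5.57, 5.96 and 5.89 on sham arrays. All high arrays were above all others, and 4 of 5 low arrays lay within the sham range. Of 21 genes of monocytes, border macrophages and dendritic cells 18 were higher, 5 of them without overlap, beside 44.4% and 0.79% of all genes, with a median difference of 0.36. With high-Xist arrays alone the median was 0.24. Ms4a6b is not on this list, and Lyz2 is also on the list of plaque-associated microglia. In the hippocampus 1 of the 21 passed the test given further on, beside 0.288% of all genes, and 0 passed without transgenic GFP 4.

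Genes that mark resting microglia had small differences, most of them above 0. P2ry12, the purine receptor of surveying microglia, was at 9.50, 9.20, 9.32, 9.28 and 9.04 on the high arrays, against 9.34, 9.31, 9.28, 9.60 and 9.20 on the low arrays and 9.34, 9.43 and 9.38 on sham arrays, a difference of -0.08 with full overlap. Of 21 homeostatic microglia genes 16 were above 0 (76.2%, beside 44.4% of all genes) and 2 were higher without overlap (beside 0.79%). In the hippocampal fit described further on, 19 of the 21 had a slope above 0, beside 52.2% of all genes. The median difference was 0.10, 0.17 without the 2 low-myelin arrays and 0.19 with high-Xist arrays alone, the largest member being Ptprc, the pan-leukocyte phosphatase CD45, which was higher by 1.40 without overlap (a second probe set by 0.09). Aif1 was higher by 0.64. Among 25 genes of plaque-associated microglia 22 were above 0, with a median of 0.27. The beta-glucan receptor Clec7a was at 10.31, 8.69, 8.69, 6.64 and 6.14 on the high arrays, against 7.02, 5.84, 5.46, 5.87 and 5.59 on the low arrays, so that only the top 3 arrays stood clear. Lgals3 and Cst7 were higher by 1.69 and 1.57, with overlap.

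Serping1, which inhibits the first complement component, was at 8.61, 8.66, 8.22, 8.11 and 7.85 on the high arrays, against 7.09, 7.45, 7.28, 6.53 and 7.12 on the low arrays and 7.40, 7.79 and 7.42 on sham arrays. The sides did not overlap, and no low array exceeded the highest sham array. All low arrays other than transgenic GFP 2 lay below the lowest sham array, and the lowest high array was narrowly above the sham range. C1qa, a chain of the first component itself, was higher by 0.78 with overlap, and 15 of 16 complement genes were above 0 (median 0.45). Of the 16, 3 were higher without overlap, beside 0.79% of all genes. All 16 Fc receptor and related genes were above 0 (median 0.45), led by Cybb, the phagocyte oxidase, at 1.68.

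B and plasma cell genes separated single arrays more than sides. Ighm, the heavy chain of IgM, was at 13.23, 12.82, 7.49, 6.85 and 8.17 on the high arrays, against 9.39, 6.64, 6.92, 6.50 and 6.61 on the low arrays and 6.58, 6.88 and 6.93 on sham arrays. Only transgenic GFP 4 and non-transgenic GFP 1 exceeded 10, and transgenic BDNF 4 lay within the sham range. Igha, the heavy chain of IgA, was at 9.83, 11.41, 8.17, 9.94 and 9.86 on the high arrays, against 6.89, 7.78, 7.78, 7.34 and 5.72 on the low arrays and 5.91, 5.96 and 5.87 on sham arrays. All high arrays were above all low ones, and 4 of 5 low arrays were above the sham range. Jchain, which joins IgA and IgM chains, was at 11.74, 11.67, 6.96, 8.37 and 9.18 on the high arrays, against 8.35, 6.53, 6.38, 5.73 and 5.19 on the low arrays and 3.91, 4.09 and 4.20 on sham arrays; every injected array exceeded the sham arrays, and the sides overlapped. Of 13 genes of this list 13 were above 0, with a median of 0.30, which was 0.20 without the 2 low-myelin arrays. T and NK cell genes were small in size: 15 of 17 were above 0, with a median of 0.25, the largest being the tissue-homing receptor Cxcr6 (0.89) and the cytotoxic granule gene Nkg7 (0.76, no overlap), and Cd3d differed by 0.49.

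**Figure D3:**
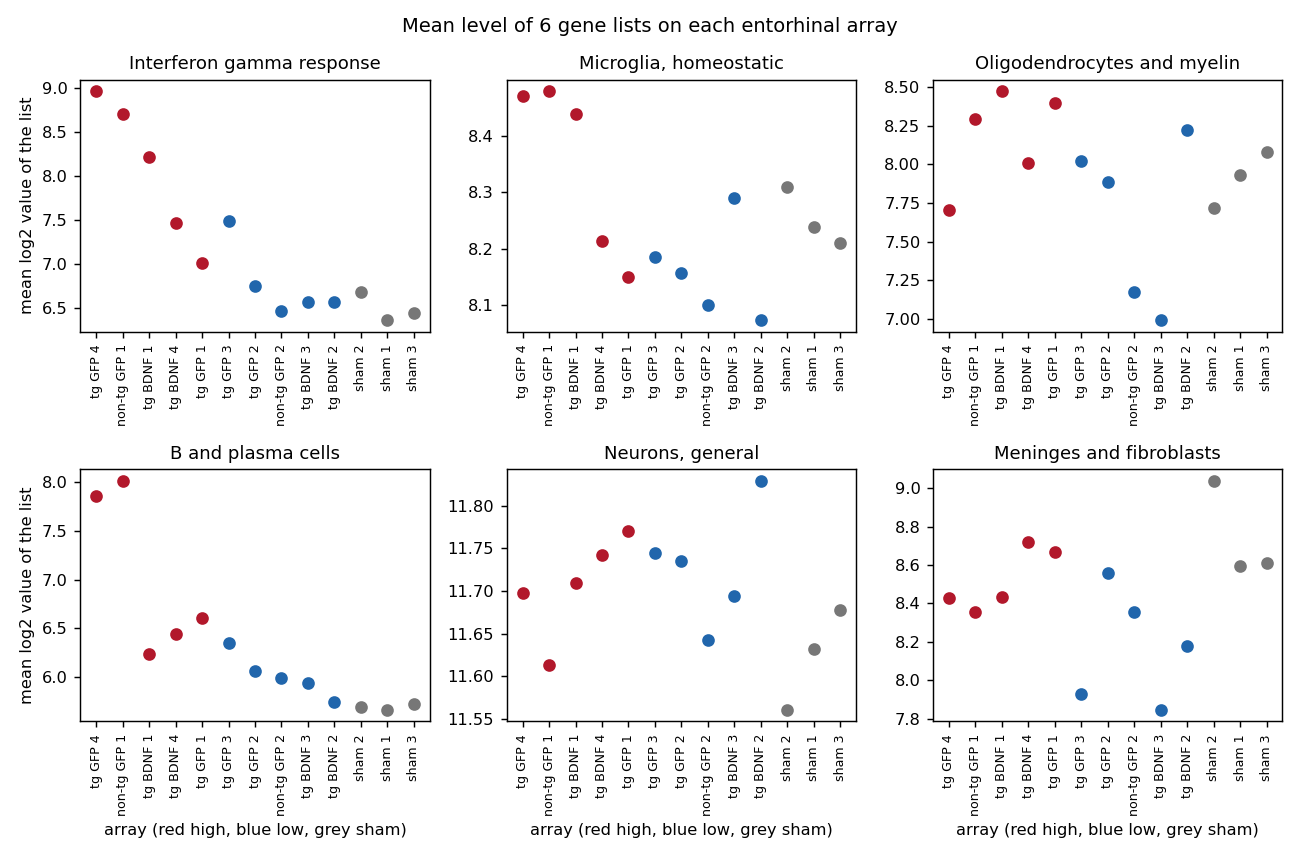
Mean log2 level (y axis) of 6 gene lists on each entorhinal array, with high, low and sham arrays in turn. The interferon gamma list ranges from 6.46 to 8.96 over the injected arrays, the B and plasma cell list is highest on transgenic GFP 4 (7.86) and non-transgenic GFP 1 (8.01), and the neuron list spans 11.56 to 11.83.

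Among glia, astrocyte activation genes were higher by less. Gfap, the intermediate filament of astrocytes, was at 9.63, 9.62, 9.92, 9.0 and 9.23 on the high arrays, against 8.88, 8.78, 8.99, 9.04 and 8.80 on the low arrays and 9.07, 9.24 and 9.21 on sham arrays. The top 3 high arrays were above all sham arrays, but the other 2 were within or below the sham level. All low arrays lay below the lowest sham array. Of 18 reactive astrocyte genes 17 were above 0 (median 0.30, and 0.18 with high-Xist arrays alone). Srgn (0.78) and Cp (0.73) were higher without overlap, as were 0.79% of all genes. Homeostatic astrocyte genes had a median of -0.00.

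Myelin genes were higher as well: 17 of 17 were above 0, with a median of 0.47. Mobp, a protein of compact myelin, was at 9.07, 10.15, 10.46, 9.64 and 9.98 on the high arrays, against 9.69, 9.14, 7.67, 7.36 and 9.94 on the low arrays, and the 2 lowest values belong to non-transgenic GFP 2 and transgenic BDNF 3. Without those 2 arrays the median of the myelin list was 0.10, a fall that the choice of the 2 arrays for their low myelin level fixes. The part of myelin content in other lists was not tested. Meningeal and fibroblast genes had a median of 0.41 (17 of 21 above 0), and it was 0.03 among the arrays with a high Xist level. As a mean, this list was at 8.35 to 8.72 on high arrays, 7.85 to 8.56 on low arrays and 8.60 to 9.04 on sham arrays.

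**Figure D4:**
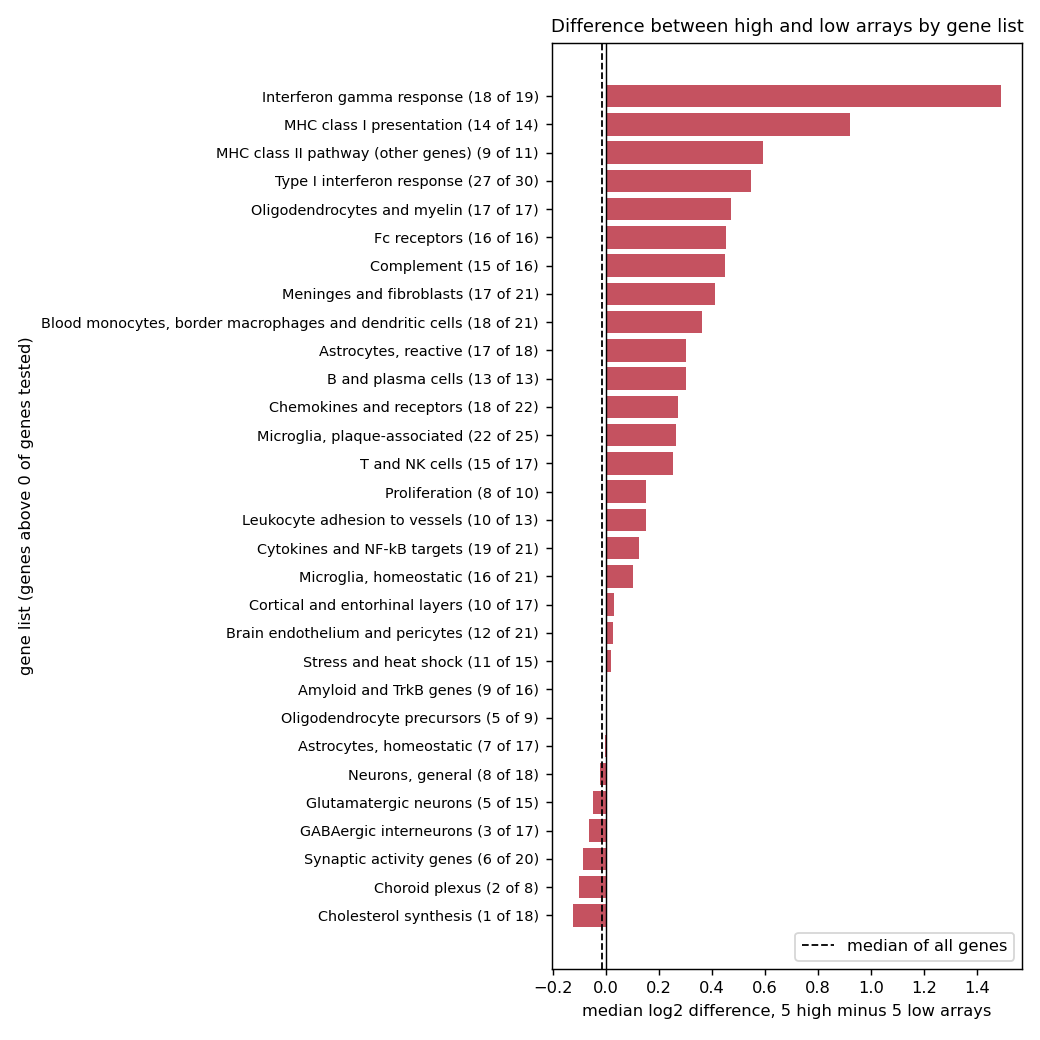
Median log2 difference, high minus low arrays (x axis), for each gene list with at least 8 genes tested (y axis, with the number of genes above 0 of the number tested). The dashed line is the median of all genes, -0.01. The interferon gamma list stands at 1.49 and the class I list at 0.92, and lists of neurons, endothelium and homeostatic astrocytes lie near 0.

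Lists that describe the neurons and vessels had small medians, and several leaned lower on the high side. Above 0 were 8 of 18 general neuron genes (median -0.02), 5 of 15 glutamatergic genes (-0.05), 3 of 17 GABAergic genes (-0.07), 6 of 20 activity-regulated genes (-0.09) and 12 of 21 endothelial and pericyte genes (0.03), beside 44.4% of all genes. In the hippocampal fit 2 of the 17 GABAergic, 5 of the 18 general neuron and 5 of the 20 activity-regulated genes had a slope above 0. So had 8 of the 15 glutamatergic and 12 of the 21 endothelial and pericyte genes, beside 52.2% of all genes. The activity-regulated genes had a median of 0.05 with 4 against 4 arrays, the opposite sign, and -0.20 with high-Xist arrays alone, and the glutamatergic genes had -0.13 there. Bdnf was at 7.42 to 8.45 on high arrays and 7.72 to 8.21 on low arrays, a difference of -0.16, and its probe set did not set the BDNF-virus arrays apart (7.71 to 8.45, against 7.42 to 8.21 on arrays with GFP virus). The sources do not say whether it can detect the delivered sequence. App differed by -0.03.

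Genes lower on the high side were small in size. The 15 largest differences without overlap ranged from -0.75 to -0.33 in log2. Sfrp2, a secreted antagonist of Wnt signalling, led with 5.03, 5.37, 4.57, 5.05 and 5.33 on the high arrays, against 5.91, 5.99, 5.64, 6.14 and 5.42 on the low arrays, and 5.42 to 5.71 on sham arrays. Cfap54, a protein of motile cilia, followed at -0.72. The others were Lsm12, Lct, Trim62, Fam183b, Gpatch11, Dgke, Eml2, Lrrn4, Pygo1, Tmtc2, Ctdspl2, 3110045C21Rik and Prdm16os. The 4 genes at least 1 lower with overlap were the Y-linked Eif2s3y, Kdm5d and Uty, high on the 4 low-Xist arrays of which 3 are on the low side, and Sbsn.

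A test that does not use the choice of arrays compared all injected with sham entorhinal arrays. Among 14941 genes, 4 were higher (0.0268%) and 5 were lower (0.0335%) in injected tissue by limma at an adjusted p under 0.05. The higher genes were Thy1, a neuronal surface protein (1.0 ± 0.06 log2, SE; limma adjusted p = 1.03e-05), Cwc22, a splicing factor (1.07 ± 0.08; adjusted p = 0.000191), Pmaip1, a cell death gene (1.61 ± 0.21; adjusted p = 0.00871), and Nxpe3 (0.40; adjusted p = 0.00871). The lower genes were Galc, a lysosomal galactolipid hydrolase (-0.92; limma adjusted p = 0.000367), Fgf1, St13, Pcdhb9 and Lsm11 (-0.70 to -0.58 for the first 3 and -0.77 for Lsm11). Thy1 and St13 tracked the transgene: Thy1 was at 13.53 to 13.80 on transgenic injected arrays and at 12.30 and 12.32 on the 2 non-transgenic GFP arrays, against 12.39 to 12.46 on sham arrays. Galc and Cwc22 set all 10 injected arrays apart from sham arrays, and the sides were alike in them (differences of 0.05 and 0.00).

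None of the 17 genes passed that test, nor did the interferon and antibody genes above. Gbp2 differed from sham by 1.29 ± 0.73 (SE; limma adjusted p = 0.636), Psmb9 by 1.42 ± 0.56 (adjusted p = 0.539), Jchain by 3.94 ± 1.11 (adjusted p = 0.523), Igha by 2.56 ± 0.90 (adjusted p = 0.539) and Serping1 by 0.16 ± 0.40 (adjusted p = 0.926). The injected arrays spread widely in these genes.

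The 10 hippocampal arrays of injected animals, which the choice of arrays did not use, offered a test of which genes move with class II genes. Their scores were 11.27 on non-transgenic GFP 1, 10.42, 10.20 and 10.19 on transgenic GFP 2, 1 and 3, 9.70 on non-transgenic GFP 2, 9.36, 7.77, 7.67 and 6.19 on transgenic BDNF 1, 2, 4 and 3, and 6.17 on transgenic GFP 4. Sham arrays were at 6.26, 5.92 and 6.25. Transgenic GFP 4 thus had the lowest hippocampal score and the highest entorhinal one, and array numbers are not known to mark the same animal in both regions: Xist class matched in 7 of 13 pairs of numbers. Each gene was fitted with limma on the labelled group and the score of the same array, so a slope is the log2 change per log2 unit of score.

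In the hippocampus 43 genes rose with the score (0.288% of 14937) and 1 fell (0.00669%) at a limma adjusted p under 0.05. Gbp2 was at 9.96, 9.01, 8.95, 8.98, 8.22, 8.32, 7.28, 7.26, 6.21 and 6.15 in the order of the scores, a slope of 0.71 ± 0.04 (SE; limma adjusted p = 2.24e-05). Apart from small exchanges it followed the rank of the score over its whole range. H2-K1 was at 12.11, 11.60, 11.66, 11.53, 11.17, 10.87, 10.38, 10.30, 9.60 and 9.50, a slope of 0.49 ± 0.03 (limma adjusted p = 2.35e-05). Clec7a was at 8.39, 8.19, 7.76, 7.60, 7.12, 7.0, 5.83, 5.93, 5.18 and 5.62, a slope of 0.57 ± 0.04 (limma adjusted p = 7.87e-05). Gbp8 (slope 1.14 ± 0.06) and Iigp1 (0.74 ± 0.04) had limma adjusted p = 2.24e-05 and 2.35e-05. The gene that fell was Dusp5, a phosphatase of ERK (slope -0.17 ± 0.03, limma adjusted p = 0.0389).

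**Figure D5:**
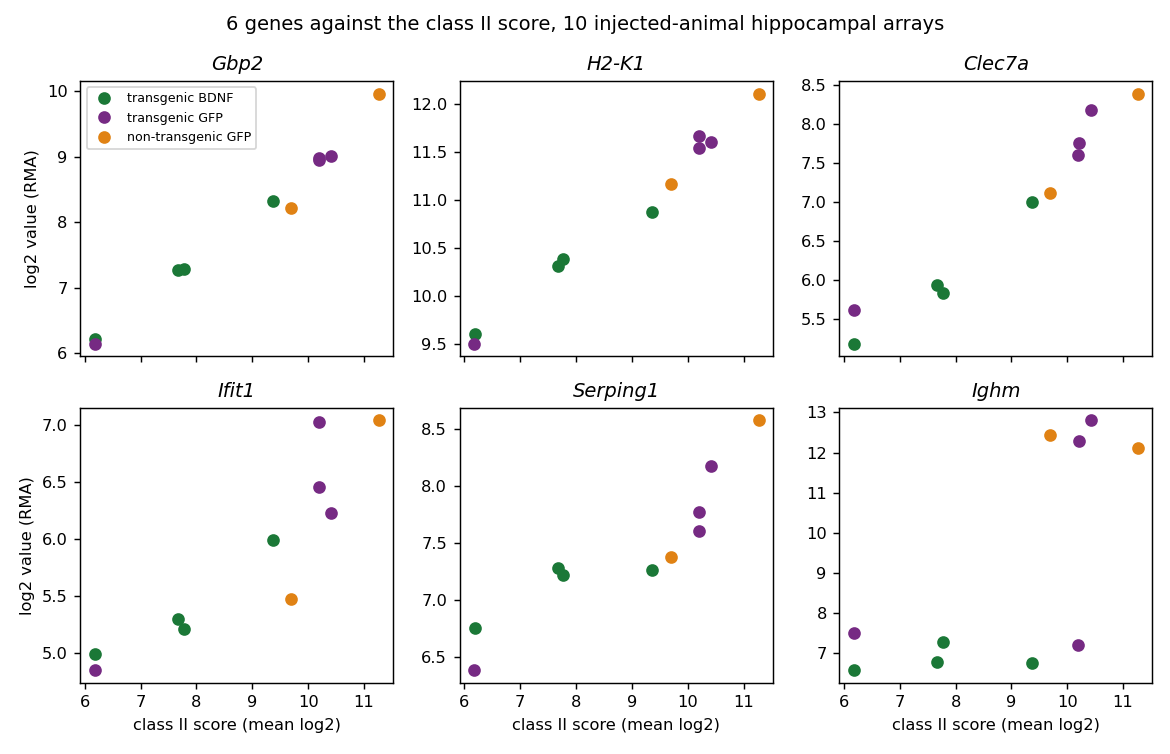
Log2 level of Gbp2, H2-K1, Clec7a, Ifit1, Serping1 and Ighm (y axis) against the class II score (x axis) on the 10 hippocampal arrays of injected animals, coloured by labelled group. Gbp2, H2-K1 and Clec7a rise along the whole range, and Ighm is above 12 on 4 arrays and at 7.50 or less on 6.

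By list, the 43 genes held 12 of 19 interferon gamma genes, 7 of 30 type I interferon genes, 5 of 14 class I genes, 3 of 22 chemokines and 1 of 11 class II pathway genes, beside 0.288% of all genes. Without hippocampal transgenic GFP 4 these counts were 3, 0, 1, 0 and 0. With Xist as a covariate, where 69 genes rose, the lists held 9, 4, 4, 2 and 2 of them. Myelin genes had 0 of 17, and their median slope was -0.01, against 0.41 for interferon gamma genes and 0.00 over all genes. B2m (0.38 ± 0.03; limma adjusted p = 0.00012), the immunoproteasome subunits Psmb8 and Psmb9, the protease Ctss and the chemokines Cxcl9 and Cxcl10 were among the 43. Of these, Cxcl10 did not pass with Xist as a covariate. Of the 17 entorhinal genes, Ifit1, Ms4a6b, Ms4a7 and Serping1 passed (slopes 0.42, 0.35, 0.18 and 0.33; limma adjusted p = 0.0278 to 0.0497), which is 23.5% of the 17 and 9.3% of the 43. None of the 4 passed without transgenic GFP 4, without the 2 arrays farthest from the median score or with a replicate block, and Ifit1 and Ms4a7 did not pass with Xist as a covariate. Of the 78 genes with overlap allowed 32 passed, 41.0% of the 78 and 74.4% of the 43, and all 43 had an entorhinal difference above 0. Immunoglobulin genes did not pass: Ighm had 12.12, 12.81, 12.30, 7.22, 12.44, 6.77, 7.28, 6.79, 6.58 and 7.50, a slope of 0.56 ± 0.33 (limma adjusted p = 0.838), and Jchain and Igha had slopes of 1.02 ± 0.26 and 1.0 ± 0.27 (adjusted p = 0.226 and 0.254). Lyz2 did not pass either (0.47 ± 0.10; limma adjusted p = 0.102).

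The number of calls depended on the arrays and on the fit. Without transgenic GFP 4 in the hippocampus 5 genes passed, Clec7a, Gbp2, Gbp8, H2-K1 and Iigp1, all among the 43. Without the 2 arrays farthest from the median score 1 gene passed, Gbp8, and without transgenic BDNF 3 there were 28 genes. With all 10 arrays and the replicate number as a block 6 genes passed. All 43 genes kept a slope above 0 without transgenic GFP 4, with a median of 0.44 against 0.41 on all 10 arrays. They also did so without the 2 farthest arrays, with a median of 0.57. The 43 were picked on a fit that shares the remaining arrays, so these values are a description.

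Promoter windows (250 bases before to 50 after the gene start) from RefSeq on GRCm38.p6 were searched for motifs on both strands in the genes whose hippocampal slope passed, because these are the genes with a test. The core of the interferon-stimulated response element, bound by interferon regulatory factors, was searched as GAAANNGAA, or TTCNNTTTC on the other strand. The gamma-activated site bound by STAT proteins was searched as TTCNNNGAA, which reads alike on both strands, and the Y box of class II promoters as CTGATTGG, or CCAATCAG. A window was found for 31 of the 43 genes. The first motif was in the windows of 19 of 31 genes (61.3%), against 998 of 11954 tested genes with a window (8.35%). A longer form of it, with 1 more A at the 3' end and searched first, was in 13 of 31 (41.9%), against 3.5%. The gamma-activated site was in 6 of 31 (19.4%, against 8.33%) and the Y box in 5 of 31 (16.1%, against 6.15%). Of the 17 entorhinal genes 14 had a window, and 5 of them (35.7%) held the first motif. These are matches of letters and not known sites. The windows of the 3 called genes with the steepest slopes that hold the first motif, and of Ifit1, the steepest of the 17 entorhinal genes that passed and hold it, are printed 5' to 3' with its matches in capitals. They are Igtp chr11:58199306-58199605, Gbp2 chr3:142620413-142620712 and Ifit1 chr19:34640639-34640938 on the plus strand, and Cxcl9 chr5:92328030-92328329 on the minus strand. The match begins 34 bases before the start in Igtp, 58 in Gbp2 and 175 in Cxcl9, and Ifit1 has 3 matches, the first 109 and the last 84 bases before the start, of which the first 2 overlap.
Igtp: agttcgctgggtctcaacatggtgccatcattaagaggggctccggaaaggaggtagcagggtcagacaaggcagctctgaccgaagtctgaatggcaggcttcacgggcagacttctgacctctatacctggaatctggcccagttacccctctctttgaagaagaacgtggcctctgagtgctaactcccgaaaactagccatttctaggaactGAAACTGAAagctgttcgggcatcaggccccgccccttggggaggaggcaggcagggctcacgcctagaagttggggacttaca
Gbp2: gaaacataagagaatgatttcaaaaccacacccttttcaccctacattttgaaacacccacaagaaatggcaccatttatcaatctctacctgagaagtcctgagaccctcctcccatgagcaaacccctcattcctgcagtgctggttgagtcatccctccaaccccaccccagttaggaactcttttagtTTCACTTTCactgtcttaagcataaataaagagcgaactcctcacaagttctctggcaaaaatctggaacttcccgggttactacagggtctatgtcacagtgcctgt
Cxcl9: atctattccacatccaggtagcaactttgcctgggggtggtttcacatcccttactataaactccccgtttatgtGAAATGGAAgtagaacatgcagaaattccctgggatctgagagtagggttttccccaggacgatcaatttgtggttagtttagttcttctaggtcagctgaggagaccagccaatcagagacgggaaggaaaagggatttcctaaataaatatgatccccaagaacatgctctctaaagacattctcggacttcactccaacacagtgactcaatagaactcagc
Ifit1: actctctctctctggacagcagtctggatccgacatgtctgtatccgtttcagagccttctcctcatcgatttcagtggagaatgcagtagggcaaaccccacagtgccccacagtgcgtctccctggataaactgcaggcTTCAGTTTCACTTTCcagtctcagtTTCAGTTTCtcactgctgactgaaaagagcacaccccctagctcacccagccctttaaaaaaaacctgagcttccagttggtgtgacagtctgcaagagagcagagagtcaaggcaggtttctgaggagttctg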

How the data were processed

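RNA from entorhinal cortex and hippocampus was measured on Affymetrix arrays, 26 in all. The authors deposited log2 values, made with RMA per the submitters' processing notes. Its version and the build behind the probe annotation are not stated there. RMA evens out the distributions of the arrays, so a shift of all genes at once is largely hidden. The deposited values are not fully alike: the mean over all probe sets was 6.13 on transgenic BDNF 3, a low-side array. It was 6.08 to 6.09 on high arrays. The part of this deviation in the differences was not tested. The table holds 45101 probe sets, of which 34958 name 1 gene, 932 several and 9211 none in the platform annotation given. No 2 arrays held identical values. A gene was read from its single-symbol probe set with the highest mean over the 26 arrays (18194 genes), and 14941 genes were kept whose mean reached 4.33, the 30th percentile over probe sets.

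The members and gene lists were chosen with earlier results of these data known. Differences between high and low arrays are means of log2 values without a test. Genes were named by rule: up to 25 higher without overlap by size, up to 15 lower, up to 4 members of each list by size, and a fixed set of marker genes. Other called genes named in the text were chosen after their values were seen. Injected against sham arrays and the hippocampal slope were tested with limma 3.58.1 in R 4.3.3 (lmFit, eBayes, Benjamini-Hochberg over all genes), at an adjusted p under 0.05. Exact tests planned for the score were run, but their p-values are not used, since the score chose the arrays. Each limma fit was tested on simulated data. Of 617 listed genes 503 were tested; genes not passing the filter were not analysed here. The number of arrays limits the precision. Labels call the arrays biological replicates. Whether replicate numbers pair arrays between groups is not known. Correlations of deviations between same-numbered arrays ran from -0.25 to 0.39. They do not settle it, since no values for arrays with different numbers stand beside them.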

Additional observations from a re-analysis of the deposited data

Results flagged for a closer look

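In groups of 4 arrays, 66 sets of values were examined for an array far from the other 3, and 7 stood out. Chance gives about 1 in 20 for values that were not picked by their level. The 6 genes below were picked for being high on the side that holds entorhinal transgenic GFP 4. That rate is therefore no measure for them. In the hippocampal transgenic GFP group, array 4 had a class II score of 6.17, with the nearest other array at 10.19. In the entorhinal transgenic GFP group, array 4 was far above the others in 6 genes. Cxcl11 was at 9.13 there (next 6.30), Cxcl13 at 9.18 (next 6.42), Fgl2 at 6.89 (next 4.94), Gimap4 at 7.39 (next 5.45), Lyz2 at 9.85 (next 7.67) and Ptprc at 9.29 (next 7.68). The label is the same number in both regions, but the numbers are not known to mark the same animal. Xist was at 10.60 on entorhinal transgenic GFP 4 and at 5.38 on hippocampal transgenic GFP 4. What sets either array apart was not tested.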

How the results depend on the processing

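The count of 17 higher genes was 14 to 22 with no filter, with a stricter filter, with every probe set on its own, with renewed quantile normalization, with centring, with group means removed, with transgenic arrays alone and without the 2 low-myelin arrays. It was 9 with the mean of the probe sets of a gene, 88 with 4 against 4 arrays, 136 with 3 against 3, 103 with only high-Xist arrays, 48 and 2 with minimum differences of 0.5 and 2, and 47 with a score without H2-Ab1, which put transgenic GFP 3 on the high side. Leaving out 1 array at a time gave 13 to 68 genes (51 without transgenic GFP 1 and 68 without transgenic GFP 3), and 0 to 2 lower genes. Lower genes numbered 2 with 3 against 3 arrays, 1 without the low-myelin arrays, 11 with only high-Xist arrays and 4 with a minimum difference of 0.5. Settings with fewer arrays meet the rule of no overlap more readily, so their counts are not directly comparable with 17. The alternatives on low-myelin, high-Xist, transgenic-only and farthest arrays were chosen after seeing the data.

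For injected against sham arrays, the count of 9 was 15 with array weights, 15 with all 26 arrays in 1 fit, 3 with non-transgenic GFP arrays against sham arrays, and 5 to 11 leaving out 1 array at a time (5 without sham 2); at an unadjusted p under 0.05 there were 1271. With only non-transgenic GFP arrays Thy1 was reversed, at -0.11. The score difference of injected minus sham arrays was 1.97 to 2.46 leaving out 1 array at a time. The hippocampal count of 44 was 187 with no group terms and 83 with all 13 hippocampal arrays. It was 74 with Xist as a covariate, and these held 31 of the 43 higher genes. Without the 2 arrays farthest from the median score the count was 1. Leaving out 1 array at a time gave 5 to 51 (5 without transgenic GFP 4 and 28 without transgenic BDNF 3). With a replicate block the counts were 7 (injected against sham) and 6 (hippocampal slope), and the score difference of BDNF minus GFP, which a balanced block cannot move, was -0.90; leaving out 1 array it was -1.65 to -0.27. The numbers are not shown to pair samples. The cause was not tested for any of these. The signal of dim probe sets near the filter limits small differences.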

Other observations

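Among the remaining lists, genes of cholesterol synthesis leaned lower on the high side: 1 of 18 was above 0, with a median difference of -0.12, and Sc5d (-0.40), Cyp51 (-0.29), Idi1 (-0.23) and Msmo1 (-0.23) had the largest sizes, none of which reached 1. The median was -0.03 with high-Xist arrays alone, -0.06 with 4 against 4 arrays, -0.05 with 3 against 3 and -0.22 without the 2 low-myelin arrays. These values were not tested. Cytokine and NF-kB target genes had a median of 0.12 (19 of 21 above 0), led by the T cell costimulator Cd86 (0.60). Genes of leukocyte adhesion to vessels had a median of 0.15 (10 of 13 above 0), led by the integrin chain Itgal (1.18). Proliferation genes also had a median of 0.15 (8 of 10 above 0), led by Rrm2, a subunit of ribonucleotide reductase (0.63). The medians were 0.03 for cortical and entorhinal layer genes (0.18 with high-Xist arrays alone), 0.02 for stress genes, 0.00 for amyloid and TrkB genes, 0.00 for oligodendrocyte precursors (-0.21 with high-Xist arrays alone), 0.02 for the 3 erythrocyte genes, -0.04 for the 7 neutrophil genes and -0.10 for the 8 choroid plexus genes.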
